A study of Mus musculus with 4 samples.

Results

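The wells described here were chosen by measured expression: they are the morula wells with the most and the least RNA of the keratins Krt8 and Krt18, the endocytic adaptor Dab2 and the transcription factor Gata3. Each morula well with at least 2000 detected genes was given a score, the mean over these 4 genes of the natural log of 1 plus the count per 10000 counts. Within each plate and morpholino, wells were ranked by score, and the third of wells with the highest scores (the high group) was compared with the third with the lowest (the low group). The rule took 126 wells, 63 high and 63 low, of the 191 morula wells that had enough genes, of 192 morula wells and of 384 wells in the whole series. The 65 wells between them, the middle group, were not compared.

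The study measured RNA per gene and well in mouse embryos after injection of a morpholino. A morpholino is a synthetic oligonucleotide that binds an RNA and interferes with its translation or splicing. Embryos received either a control morpholino or one against NKX1-2, a homeobox transcription factor, and no uninjected embryos were compared here. The morula groups were 2 plates with 96 wells each, and each plate was divided evenly between both morpholinos, so 4 combinations of plate and morpholino gave 4 high and 4 low sums of counts. The blastocyst plates, also 2, were divided in the same way and were ranked by the same rule for comparison. The labels name the embryo as the source and single cells as the library input, and give no strain, sex or embryo for a well. Wells of 1 plate can come from 1 embryo, and the spread between sums is the spread between these plates and morpholinos. All plates use the same set of 96 barcodes, so a shared barcode does not mark a shared cell.

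In the mouse embryo, cells at the surface of the morula acquire a polarised outer face, while cells enclosed by others do not. In outer cells the Hippo pathway is held inactive, the coactivator YAP enters the nucleus, and with the DNA-binding factor TEAD4 it turns on genes of the trophectoderm, the epithelium that later forms the placenta. Keratins 8 and 18 pair into the intermediate filaments of this epithelium, Gata3 is one of its transcription factors, and Dab2 serves endocytosis at its surface. Inner cells keep Sox2 and other pluripotency genes and form the inner cell mass. The comparison asked whether morula wells with more RNA of these outer-cell genes also differed in other genes.

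The score itself was low at the morula stage and rested on few counts. The median score was 0.308 in the high group, 0.167 in the middle group and 0.0549 in the low group. The 4 genes together had a median of 8 counts per well in the high group (range 2 to 28) and of 1 count in the low group (range 0 to 5), and 17 low wells had none. In the blastocyst, the median scores were 0.967 in the high and 0.126 in the low group, from 28 and 2 counts. At the boundaries, the lowest high well of control wells had a score of 0.260 in replicate 1, just above the highest middle well at 0.244, and in replicate 2 the same wells stood at 0.178 and 0.160. The lowest middle wells stood at 0.122 and 0.0882 there, against 0.116 and 0.0797 for the highest low wells. In NKX1-2 wells, the upper boundary fell between 0.226 and 0.225 in replicate 1 and between 0.234 and 0.210 in replicate 2. The lower boundary fell between 0.159 and 0.136 and between 0.106 and 0.105. Neighbouring wells on either side of a boundary were thus close in score, with no gap between the groups.

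**Figure D1:**
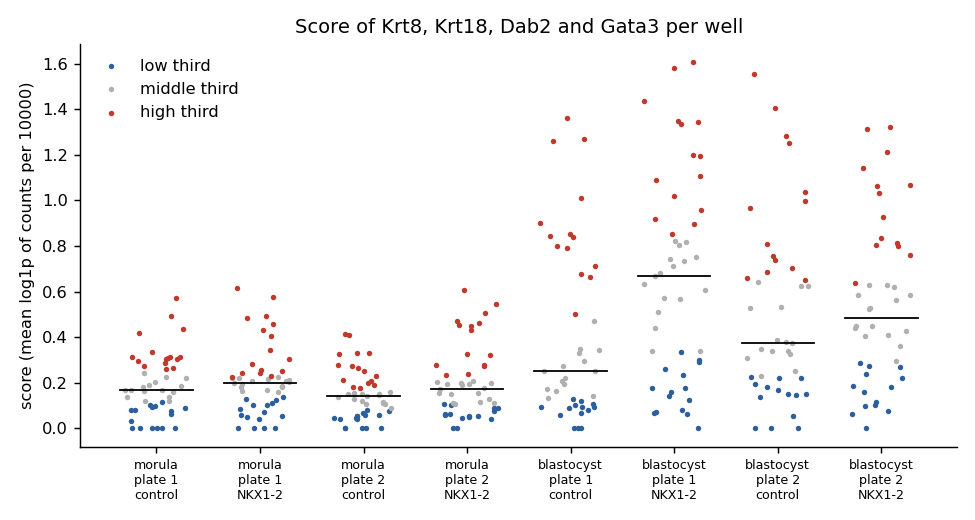
Score of each well (mean log1p of counts per 10000 over Krt8, Krt18, Dab2 and Gata3) by stage, plate and morpholino, coloured by group, with a black line at the median of all kept wells. Morula scores end at 0.614 and blastocyst scores at 1.61, and in the morula no gap separates the groups.

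Because the 4 genes chose the wells, their own difference is a description. Krt8 stood at 77.3, 157, 88.6 and 97.2 counts per 1000000 counts (CPM) in the high sums of control and NKX1-2 wells of replicate 1 and then of replicate 2, and at 8.55, 13.5, 5.12 and 5.28 CPM in the low sums in the same order. Krt18 ranged from 25.9 to 56.1 CPM in the high and from 5.12 to 12.1 CPM in the low sums, and Dab2 from 16.4 to 33.7 and from 5.12 to 7.13 CPM. Gata3 was uneven between the morpholinos, at 22.7 and 9.55 CPM in the high sums of control wells against 49.1 and 58.3 CPM in those of NKX1-2 wells. Its low sums held 0 counts in both morpholinos of replicate 1 and 2 and 10 counts in control and NKX1-2 wells of replicate 2.

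High wells had a median of 48017 counts (range 11888 to 82570) and 7050 genes, and low wells 43222 counts (range 7191 to 109151) and 6713 genes. The sums held 586390 to 771470 counts. Depth differed most in control wells of replicate 2, where the high sum held 733285 and the low sum 586390 counts, and Spearman's rho between score and total count was 0.24 over 48 wells of 1 plate. In the other 3 combinations rho ran from -0.11 to 0.0646. The groups differed in their sex makeup. Wells that had Xist but no Y-linked counts, called female here, made up 19 of 63 high and 36 of 63 low wells, and wells that had Y-linked counts but no Xist 28 of 63 high and 15 of 63 low wells. Both kinds of count were found in 11 high and 7 low wells and neither in 5 and 5, so this class is not certain for a well. Of 15 markers of cumulus and granulosa cells, 10 had no count in the 8 sums, 1 could be tested (Amhr2, log2 fold change -0.23, adjusted p = 0.849), and their summed level was 67.4 to 94.1 CPM in the high and 83.6 to 106 CPM in the low sums. Of 9 blood cell markers, 5 had no count and none could be tested, and their sum lay at 5.18 to 10.6 CPM in the high and 2.64 to 17.1 CPM in the low sums.

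The first question was whether the 4 score genes marked the same wells. Of the 63 wells in the high group by both keratins alone, 20 (31.7%) were in the high group by Dab2 and Gata3, and 20 (31.7%) were in the low group by Dab2 and Gata3. Wells with equal scores were ordered by barcode. In morula control wells of replicate 2, Dab2 was found in 39.6% and Gata3 in 16.7% of 48 wells. More wells there had neither gene than the low group of 16 held, so barcode order chose that low group. In the blastocyst, 39 of 57 keratin-high wells (68.4%) were also high and 4 of 57 (7.02%) low in Dab2 and Gata3. By construction, a high or low group held 63 of the 191 morula wells and 57 of the 177 blastocyst wells ranked. The morula overlap was thus near the share over all wells.

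Each score gene was therefore left out of the score in turn and read in groups ranked on the other 3, which makes its level independent of the ranking. Gata3, held out, stood at 15.3, 19.3, 2.94 and 52.0 CPM in the high sums (control and NKX1-2 wells of replicate 1, then of replicate 2) and at 1.39, 27.8, 5.11 and 27.2 CPM in the low sums. It was higher in the high sum of 2 of the 4 pairs, and the groups overlapped. Its log2 fold change was 0.52 (SE 0.36, 95% confidence interval -0.22 to 1.26, adjusted p = 0.853, edgeR's quasi-likelihood test with Benjamini-Hochberg adjustment over all genes tested). Dab2 stood at 16.5, 12.9, 13.9 and 26.7 CPM in the high and 21.7, 17.5, 14.8 and 12.99 CPM in the low sums, 0.06 on the log2 scale (SE 0.33, interval -0.62 to 0.73, adjusted p = 0.981). The high sum of Dab2 was the lower one in 3 of the 4 pairs.

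Both keratins lay above 0 without passing. Held-out Krt8 stood at 37.7, 55.4, 47.6 and 77.2 CPM in the high and 26.9, 50.3, 49.5 and 26.2 CPM in the low sums (log2 fold change 0.52, SE 0.22, interval 0.07 to 0.97, adjusted p = 0.729). Held-out Krt18 stood at 41.9, 16.6, 14.3 and 21.8 CPM in the high and 14.5, 17.3, 16.7 and 11.2 CPM in the low sums (0.62, SE 0.32, interval -0.02 to 1.27, adjusted p = 0.660). For Krt8 the pair of NKX1-2 wells of replicate 2 differed the most, and for Krt18 the pairs of control wells of replicate 1 and NKX1-2 wells of replicate 2 were higher while the other 2 were not. None of the 4 held-out genes passed at an adjusted p of 0.05 in the morula.

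The same contrast was tested in the blastocyst, in a fit of both stages. The blastocyst CPM use the scaling of that fit, and the morula CPM above that of the morula fit. Krt18 rose from 43.7 ± 20.03 to 302 ± 56.8 CPM (SD, n = 4 sums), Dab2 from 46.7 ± 7.55 to 286 ± 29.0, Gata3 from 23.9 ± 9.25 to 147 ± 45.2 and Krt8 from 41.2 ± 12.7 to 110 ± 26.3 CPM. Their log2 fold changes were 2.77 (SE 0.24, adjusted p = 1.88e-09) for Krt18, 2.58 (SE 0.19, adjusted p = 4.92e-13) for Dab2, 2.56 (SE 0.29, adjusted p = 1.61e-07) for Gata3 and 1.41 (SE 0.25, adjusted p = 0.000166) for Krt8. The high and low blastocyst sums of each of these genes did not overlap. Tested as a difference between the stages, the blastocyst contrast was larger by 2.52 for Dab2 (SE 0.37, adjusted p = 3.25e-05), by 2.15 for Krt18 (SE 0.47, adjusted p = 0.0125) and by 2.05 for Gata3 (SE 0.49, adjusted p = 0.0161) on the log2 scale. For Krt8 the difference of 0.90 (SE 0.34, adjusted p = 0.265) did not pass.

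**Figure D2:**
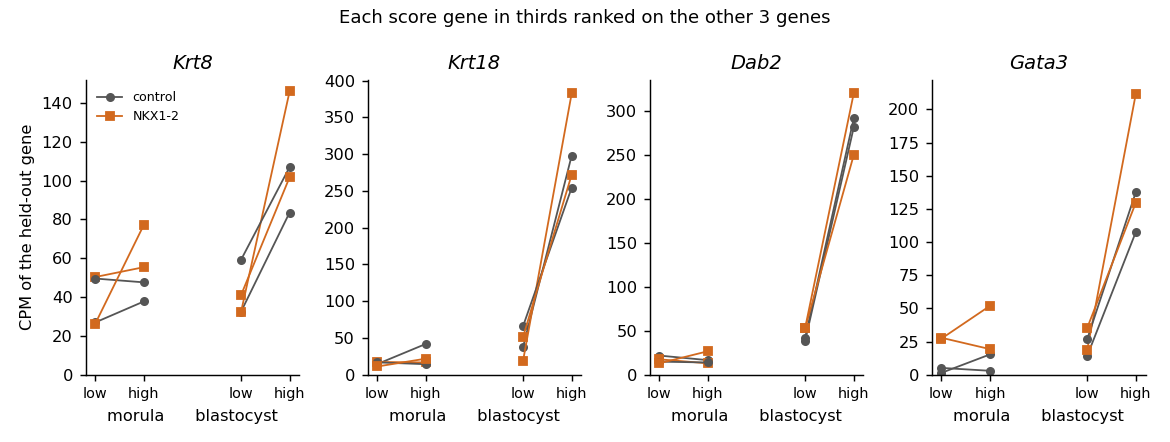
CPM (linear axis from 0) of each score gene in low and high groups ranked on the other 3 genes, with 1 line per plate and morpholino. In the morula the lines of each gene rise in some pairs and fall in others. Krt8 rises from 26.2 to 77.2 CPM in NKX1-2 wells and falls from 49.5 to 47.6 CPM in control wells of replicate 2. Dab2 averages 16.8 CPM in low and 17.5 CPM in high morula sums. All lines rise in the blastocyst, where Dab2 averages 46.7 and 286 CPM. Morula CPM are scaled in the fit of morula sums and blastocyst CPM in the fit of both stages, so levels compare within a stage.

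The second question was which other genes differed between the morula groups. With the score genes taken out, 15 of 6652 genes passed an adjusted p of 0.05 (0.225%), 14 higher in the high group (0.21%) and 1 lower (0.015%). The genes that rose included the transcriptional regulators Id3, Hes1 and Cited2, the growth factor Fgf1, and the actin regulators Lasp1, Arpc1b and Pdlim1. At an unadjusted p under 0.05 there were 486 genes, 262 higher and 224 lower. The count of 15 fell to 0 with DESeq2 (109 at an unadjusted p under 0.05), in a fit that left out the replicate block (329), without morula replicate 1 (319), with control wells alone (353) and in a fit of both stages together (388). It was 46 without morula replicate 2, 66 with NKX1-2 wells alone, 1 when each gene was counted without its highest well, and 3, none of them among the 15, with groups ranked on Dab2 and Gata3 alone. In that last ranking, barcode order chose the low control wells of replicate 2, as stated above. Fits without a replicate or with 1 morpholino had few residual degrees of freedom, so 0 and 66 do not measure a difference between the morpholinos.

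Id3 (ENSMUSG00000007872, chr4:136143497-136145755, plus strand, GRCm38), an inhibitor of DNA binding that is induced by BMP signals, had the smallest adjusted p. It stood at 937, 680, 916 and 983 CPM in the high sums of control and NKX1-2 wells of replicate 1 and then replicate 2, and at 713, 466, 766 and 639 CPM in the low sums. Each high sum lay above the low sum of its own plate and morpholino, although the groups overlapped. The log2 fold change was 0.45 (SE 0.08, adjusted p = 0.00334). With groups ranked on the keratins alone it was 0.0426. Hes1 (ENSMUSG00000022528, chr16:30064384-30067796), a repressor downstream of Notch, stood at 196, 136, 153 and 157 CPM in the high and at 120, 93.6, 124 and 80.9 CPM in the low sums, without overlap (0.63, SE 0.14, adjusted p = 0.0313). Cited2 (ENSMUSG00000039910, chr10:17723218-17725674), a coactivator that binds the histone acetyltransferases CBP and p300, stood at 50.9, 77.5, 73.6 and 92.3 CPM in the high and at 21.2, 50.8, 41.9 and 42.4 CPM in the low sums. Its lowest high sum was barely above its highest low sum (0.92, SE 0.19, adjusted p = 0.0313).

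Fgf1 (ENSMUSG00000036585, chr18:38838673-38929472), a fibroblast growth factor, stood at 64.4, 116, 50.01 and 93.6 CPM in the high and at 52.3, 41.4, 29.7 and 46.4 CPM in the low sums (0.92, SE 0.19, adjusted p = 0.0313). Its difference was larger in both pairs of NKX1-2 wells than in both pairs of control wells. By the interaction test, NKX1-2 minus control was 0.77 for Fgf1 (SE 0.38, adjusted p = 0.794) and did not pass. Gcnt1 (ENSMUSG00000038843, chr19:17326141-17372844), a Golgi enzyme that branches O-linked sugar chains, stood at 34.4, 58.8, 19.4 and 62.4 CPM against 7.06, 32.1, 10.5 and 19.9 CPM (1.34, SE 0.27, adjusted p = 0.0242). It passed in 10 of 20 alternative settings, the most of the 15 genes. Gng2, a gamma subunit of heterotrimeric G proteins, had the largest fold change, 1.74 (SE 0.37, adjusted p = 0.0313), at 24.2 ± 8.03 against 7.21 ± 1.93 CPM (SD, n = 4 sums). That gene rested on 91 counts in the 126 wells and shares 20.4% of its 31-base stretches with other genes.

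Capzb (ENSMUSG00000028745, chr4:139192899-139291818), the beta subunit of the filament-capping protein, stood at 121, 111, 101 and 101 CPM in the high and at 67.8, 74.9, 61.1 and 71.6 CPM in the low sums, well apart (0.65, SE 0.15, adjusted p = 0.0460). Arpc1b (ENSMUSG00000029622, chr5:145114215-145130705), a subunit of the Arp2/3 complex that nucleates branched filaments, stood at 334, 383, 320 and 404 CPM against 226, 242, 288 and 314 CPM (0.44, SE 0.10, adjusted p = 0.0434). Arpc1b shares 30.5% of its stretches with other genes, so its counts are uncertain. Pdlim1 (ENSMUSG00000055044, chr19:40221173-40271842), an adaptor that links alpha-actinin to other proteins, stood at 234, 296, 207 and 203 CPM against 169, 178, 162 and 157 CPM (0.49, SE 0.11, adjusted p = 0.0460), without overlap, and shares 11.9% of its stretches. With groups ranked on Dab2 and Gata3 alone, the values were 0.0529 for Capzb, 0.12 for Arpc1b and -0.0193 for Pdlim1. Part of the low group in that ranking was chosen by barcode order, as stated above. Lasp1 (ENSMUSG00000038366, chr11:97799000-97838764), an actin-binding LIM and SH3 protein, stood at 225, 219, 168 and 203 CPM against 114, 93.6, 171 and 119 CPM (0.73, SE 0.15, adjusted p = 0.0357). Lasp1 was higher in 3 of the 4 pairs, and its control wells of replicate 2 did not differ in that direction. Its value was 0.38 without morula replicate 1, 1.10 without morula replicate 2 and 0.22 with groups ranked on Dab2 and Gata3 alone.

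The other genes that passed were Scarb2 (log2 fold change 1.03, SE 0.23, adjusted p = 0.0357), a lysosomal membrane protein that carries glucocerebrosidase, Calm5 (1.47, SE 0.33, adjusted p = 0.0357), a calmodulin-like gene that shares 16.8% of its stretches, and Ier2 (0.75, SE 0.18, adjusted p = 0.0460), an immediate early gene. Gpx1, a glutathione peroxidase, rose from 445 ± 20.7 to 584 ± 77.7 CPM (0.39, SE 0.09, adjusted p = 0.0357, SD, n = 4 sums) and shares no stretches with other genes. The 1 gene that fell was Gm9625, a processed pseudogene (-0.37, SE 0.09, adjusted p = 0.0460), which shares 65.4% of its stretches with other genes. Gpx1 and Gm9625 fall outside the rule for named genes and were chosen after their values were seen. Over the 6652 genes tested, 455 (6.84%) were higher and 471 (7.08%) lower in the high group in all 4 pairs, and 73 (1.1%) had all high sums above and 67 (1.01%) all high sums below all low sums. Of the 14 genes that rose, 13 were higher in all 4 pairs, and 7 had no overlap between the groups.

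**Figure D3:**
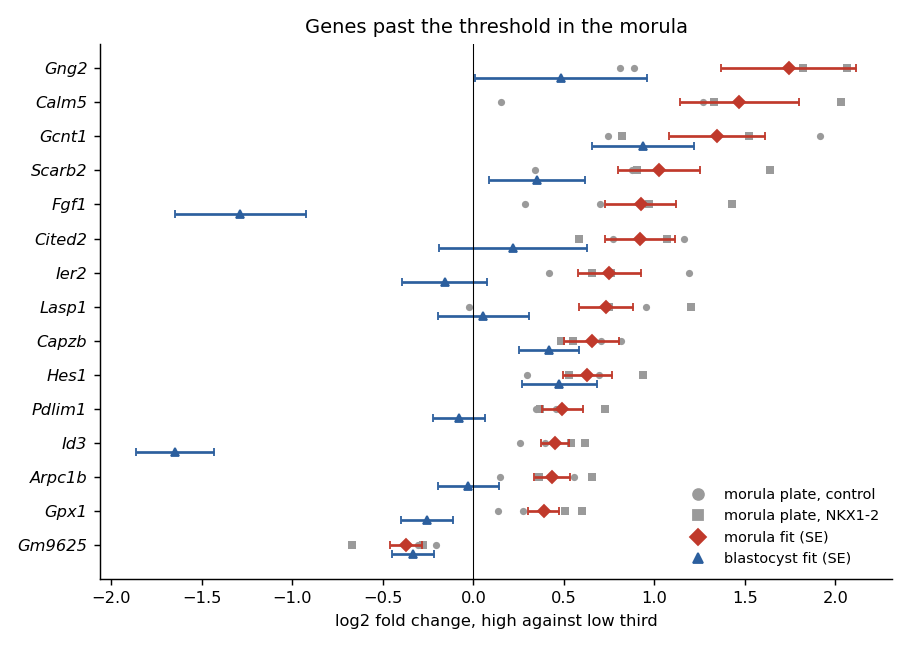
Log2 fold change, high against low group, of the 15 genes that passed in the morula, with the 4 plate and morpholino pairs in grey, the fitted morula value (red, bars of 1 SE) and the blastocyst value (blue, bars of 1 SE). Morula values run from -0.37 (Gm9625) to 1.74 (Gng2), and the blastocyst values of Id3 (-1.65) and Fgf1 (-1.29) lie on the other side of 0.

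TEAD factors bind the letters GGAATG and GATA factors AGATAA, so the promoters of the genes that rose were searched for both, on either strand, from 250 bases before to 50 after the start in the RefSeq promoters of GRCm38.p6. Promoters were matched for 11 of the 14 genes and for 4781 of the 6652 tested. GGAATG was found in 2 of 11 (18.2%), against 537 of 4781 (11.2%) of all promoters searched. AGATAA was found in 0 of 11, against 300 of 4781 (6.27%). The promoters with GGAATG were those of Id3 (chr4:136143572-136143871, plus strand) and Calm5 (chr13:3853923-3854222, plus strand), shown because they hold the letters of the factor that acts in outer cells. The match is in capitals and reads CATTCC, since it lies on the minus strand.
Id3: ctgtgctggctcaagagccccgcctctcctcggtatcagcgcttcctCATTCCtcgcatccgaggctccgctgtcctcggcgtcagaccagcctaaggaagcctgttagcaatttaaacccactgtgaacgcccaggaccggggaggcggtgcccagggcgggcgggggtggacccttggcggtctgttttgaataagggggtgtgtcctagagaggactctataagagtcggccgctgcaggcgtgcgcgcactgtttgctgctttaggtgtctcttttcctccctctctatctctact
Calm5: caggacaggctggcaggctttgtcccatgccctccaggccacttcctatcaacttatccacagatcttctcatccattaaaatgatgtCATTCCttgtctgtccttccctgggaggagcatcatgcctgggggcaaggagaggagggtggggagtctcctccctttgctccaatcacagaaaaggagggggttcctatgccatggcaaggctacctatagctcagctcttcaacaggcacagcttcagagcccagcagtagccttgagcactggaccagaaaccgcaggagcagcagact
Each promoter holds 1 match, upstream of the RefSeq start in both. The gene position given above for Id3 starts earlier, at 136143497, so its match lies inside the gene by that position. A match describes the letters and no binding was measured.

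No gene other than Gm9625 passed in the lower direction, so the 12 named lower genes were those with the smallest p, with adjusted p from 0.0697 to 0.127. Of these 12 genes, 7 lie on chromosome X: Ogt, an enzyme that attaches N-acetylglucosamine to proteins, Klhl15, Ikbkg, a regulator of NF-kappa-B, Rhox5, a homeobox gene, Alg13, Sat1, a polyamine acetyltransferase, and Pqbp1. Ogt stood at 30.0, 34.7, 61.1 and 39.0 CPM in the high and at 87.6, 56.1, 78.5 and 62.3 CPM in the low sums (-0.79, SE 0.20, adjusted p = 0.0697). Klhl15 stood at 25.5, 13.4, 26.4 and 18.2 CPM against 38.1, 40.1, 31.4 and 53.1 CPM (-0.98, SE 0.26, adjusted p = 0.0849). The sums of Klhl15 did not overlap, and those of Ogt overlapped at 1 high sum. The other 5 were Sox15, a transcription factor of the trophoblast and of pluripotent cells (-0.29, adjusted p = 0.0968), Zfp84, Rpph1, the RNA of ribonuclease P, Gadd45gip1 and Sord, a sorbitol dehydrogenase. Rpph1, Gadd45gip1 and Sord share 70.2%, 40.4% and 35.9% of their stretches with other genes.

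Most genes of chromosome X had values below 0. Of 192 tested genes of chromosome X, 142 (74.0%) were below 0, with a median log2 fold change of -0.16, against 50.8% of 6419 genes elsewhere and a median of -0.00. At an unadjusted p under 0.05, 35 genes of chromosome X (18.2%) were lower and 2 higher, against 187 of the 6419 genes elsewhere (2.91%) lower and 260 higher. Xist, the RNA that coats the inactive X chromosome, had 73.3 ± 19.9 CPM in the low and 47.1 ± 15.9 CPM in the high sums (-0.65, SE 0.20, adjusted p = 0.171), and the Y-linked Eif2s3y 17.8 ± 14.5 and 41.6 ± 21.3 CPM (1.28, SE 0.39, adjusted p = 0.288, SD, n = 4 sums), and neither passed. When groups were ranked separately in female and in all other wells, the median on chromosome X was -0.10, with 67.9% of 193 genes below 0 against 52.2% elsewhere, and 9 genes passed, 3 of them among the 15. Id3, Cited2 and Ier2 passed there, at 0.46, 1.05 and 0.97.

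No trophectoderm gene outside the score passed the test in the morula. Of 18 trophectoderm transcription factors, 7 could be tested and 0 passed, with a median log2 fold change of 0.11 against -0.01 over all genes tested. Tfap2c, which is needed for trophectoderm formation, stood at 273, 192, 220 and 183 CPM in the high and at 230, 206, 230 and 198 CPM in the low sums (-0.00, SE 0.11, adjusted p = 0.998). Tead4 (-0.10, SE 0.10), Klf5 (0.11, SE 0.08) and the epithelial factor Elf3 (0.48, SE 0.29) did not pass either. Cdx2 and Eomes, the classical trophectoderm regulators, had 22 and 15 counts in the 126 wells and were too low to be tested. In the blastocyst, where 6% of 6872 genes passed, 5 of 9 factors of this list rose and 2 fell. Elf3 (2.31), Tfap2c (0.78) and Klf5 (0.81) rose, and Hand1 (-2.09), a factor of trophoblast and extraembryonic mesoderm, and Sox15 (-1.05) fell. The stages differed for 5 of them, Tfap2a, Elf3 and Klf5 higher and Hand1 and Sox15 lower in the blastocyst contrast. Over all 6872 genes, 1.66% differed between the stages.

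The 13 tested of 34 other trophectoderm genes held 0 calls in the morula (median 0.14, 10 above 0), against 9 higher and 1 lower of 17 in the blastocyst. Over all genes tested in the blastocyst, 3.06% rose and 2.94% fell. Of 6340 genes tested in both stages, 3075 were above 0 in the morula. Fabp3, a fatty acid binding protein, was at 0.70 (SE 0.26, adjusted p = 0.460) and the aquaporin Aqp3 at 0.56 (SE 0.25, adjusted p = 0.659). The late keratins Krt7 and Krt19 and the endocytic receptor Lrp2 had 8, 4 and 13 counts, and Atp1b1, a subunit of the sodium pump, had 81, and none was tested. Anxa2, a membrane-binding annexin, stood at 41.9, 17.4, 30.6 and 7.80 CPM in the high and at 16.9, 12.03, 13.96 and 0 CPM in the low sums (1.19, SE 0.36, adjusted p = 0.165). It was higher in all 4 pairs. All 4 tested members of the list of 18 annexins and S100 genes were above 0 (median 0.42), 0 passed, and in the blastocyst 4 of 6 rose (median 0.97), Anxa2 by 2.04.

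No inner-cell gene passed as lower in the high group. Of 26 genes of the inner cell mass and of pluripotency, 18 were tested, 14 of them above 0 (median 0.15), and 1 passed, Id3, in the higher direction. Over all genes tested, 0.21% passed as higher, and 3075 of 6340 genes tested in both stages were above 0. Pou5f1, the factor OCT4, stood at 108, 103, 175 and 159 CPM in the high and at 89.0, 93.6, 115 and 146 CPM in the low sums (0.28, SE 0.14, adjusted p = 0.659), and Nanog, another pluripotency factor, was at 0.24 (SE 0.19, adjusted p = 0.874). Pou5f1 shares 14.2% and Nanog 10.7% of their stretches with other genes, so their counts are less certain. Sox2, the earliest inner-cell marker, had 30 counts in all and was not tested. In the blastocyst 6 of 19 genes of this list fell and 0 rose, against 2.94% and 3.06% of all genes tested there. The contrast was lower than in the morula for 5, namely Id3, Esrrb, Tdgf1, Klf2 and Bhmt, against 0.99% of all genes. Of 16 primitive endoderm genes, 4 were tested and 0 passed (median 0.15). Gata6 was at -0.11 (SE 0.10) and Gata4 at -0.14 (SE 0.23), and in the blastocyst 1 of 6 rose, Fgfr2.

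Few genes of cell shape and contact passed the test. The list of 36 actomyosin and actin regulators had 27 tested genes, of which 3 rose and 0 fell, 20 were above 0 and 9 were higher in all 4 pairs (median 0.11). Over all genes tested, 0.21% rose and 6.84% were higher in all 4 pairs. Of 6340 genes tested in both stages, 3075 were above 0 in the morula. Capzb was not on that list. Tagln2 (0.67, SE 0.18, adjusted p = 0.186), Tmsb10 (0.40, SE 0.11, adjusted p = 0.127) and Actb (0.21, SE 0.07, adjusted p = 0.194) were higher in all 4 pairs and did not pass. In the blastocyst 14 of 30 rose and 1 fell, against 3.06% and 2.94% of all genes tested there. Lasp1 (0.06), Arpc1b (-0.03) and Pdlim1 (-0.08), which rose in the morula, did not pass in the blastocyst. Of 26 apical domain and polarity genes, 14 were tested and 0 passed (median 0.02). Ezr, an apical linker of actin to the membrane, had 83 counts and was not tested. Of 25 cell junction genes, 15 were tested and 0 passed (median 0.08). Cdh1, E-cadherin, was at -0.03 (SE 0.20), and the adhesion molecule Nectin2 at 0.92 (SE 0.22, adjusted p = 0.0616), the nearest to the threshold.

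The Hippo pathway list had 28 genes, 13 of them tested, with 0 calls (median 0.02). Yap1 stood at 210, 118, 169 and 143 CPM in the high and at 195, 147, 183 and 145 CPM in the low sums (-0.08, SE 0.12, adjusted p = 0.957). Amot, which holds YAP outside the nucleus in inner cells, was at 0.28 (SE 0.21, adjusted p = 0.865), and its relative Amotl2 at 1.06 (SE 0.36, adjusted p = 0.295). Lats2, a kinase of the pathway, had 63 counts and was not tested. In the blastocyst Tead1 (1.92) and Vgll4 (1.40) rose, of 13 tested, against 3.06% of all genes tested there.

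Lists of cell state gave few calls. The p53 target list had 0 of 18 tested genes past the threshold in the morula (median 0.13). Plk2 (1.35, SE 0.35, adjusted p = 0.0803) and Cdkn1a (0.49, SE 0.18, adjusted p = 0.493), which stops the cell cycle, were above 0 there and below 0 in the blastocyst (-1.09 and -0.50), and the stages differed for both (adjusted p = 0.00207 and 0.0140). In the blastocyst 5 of 22 genes of that list fell and 0 rose (median -0.51), against 2.94% and 3.06% of all genes tested there. Of lysosomal genes 1 of 28 rose in the morula, Scarb2, and of stress and heat shock genes 1 of 18, Ier2, with medians of 0.03 and -0.00. Over all genes tested in the morula, 0.21% rose. No gene passed among 38 G2 and M phase genes (median -0.03), 40 S phase genes (0.01), 65 nuclear oxidative phosphorylation genes (0.02), 7 maternal oocyte genes (-0.04) and 4 early-embryo genes (-0.03). The 7 mitochondrially encoded genes were all below 0 (median -0.07, lowest adjusted p = 0.233).

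**Figure D4:**
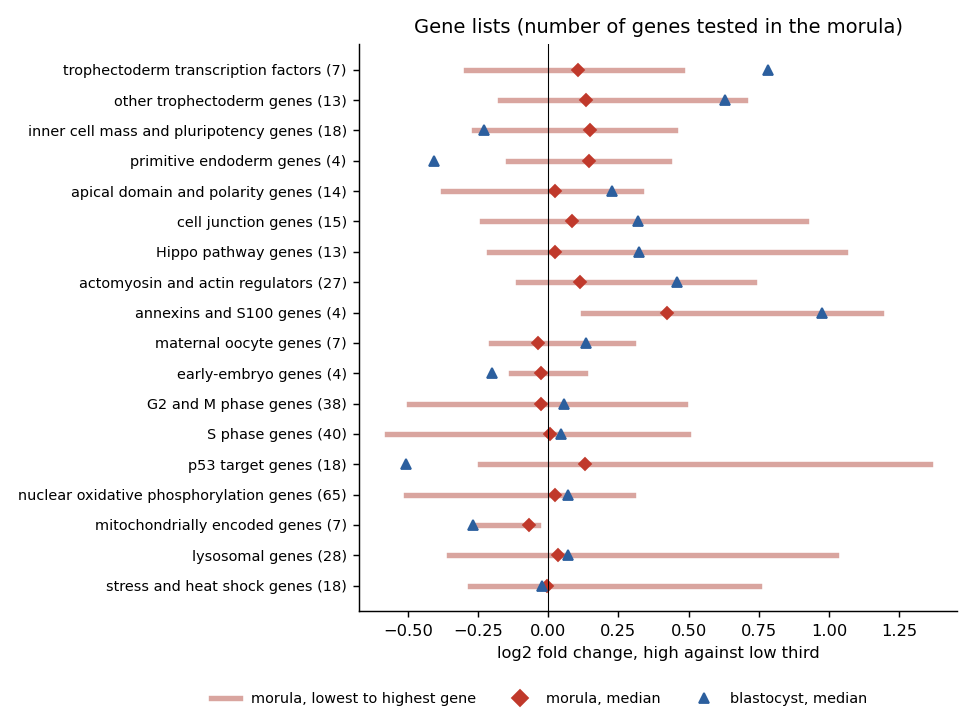
Median log2 fold change, high against low group, of each gene list in the morula (red) and the blastocyst (blue), with a bar from the lowest to the highest gene in the morula and the number of genes tested in the morula in brackets. Trophectoderm transcription factors have a median of 0.11 in the morula and 0.78 in the blastocyst, and inner cell mass genes 0.15 and -0.23.

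The third question was whether the contrast depended on the stage. The difference was tested in 1 fit of 16 sums, in which 114 of 6872 genes passed (1.66%), 46 with a higher (0.669%) and 68 with a lower (0.99%) contrast in the blastocyst. In that fit 412 genes passed in the blastocyst (6%), 210 higher (3.06%) and 202 lower (2.94%), and 0 in the morula (0%), where 388 had an unadjusted p under 0.05. The CPM below come from that common scaling. Spic, an Ets-family factor, differed the most clearly, by -2.25 (SE 0.17, adjusted p = 9.28e-11). It averaged 893 and 851 CPM in the high and low morula sums, against 62.5 ± 11.3 and 283 ± 28.8 CPM in the blastocyst (SD, n = 4 sums). Id3 differed by -2.10 (SE 0.26, adjusted p = 7.61e-05). In the blastocyst it stood at 151, 17.8, 69.8 and 72.5 CPM in the high and at 332, 187, 132 and 286 CPM in the low sums, -1.65 on the log2 scale (SE 0.22, adjusted p = 3.91e-05), so Id3 rose with the score in the morula and fell with it in the blastocyst. Fgf1 did the same, with -1.29 (SE 0.36, adjusted p = 0.0261) in the blastocyst and a difference of -2.20 (SE 0.42, adjusted p = 0.00218).

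Other genes with a lower contrast in the blastocyst were Bex6 (-2.17, SE 0.29, adjusted p = 3.41e-05), Hand1 (-2.37, SE 0.36, adjusted p = 0.00104) and the transporter Abcb5 (-1.56, SE 0.29, adjusted p = 0.00207). Hand1 averaged 410 and 337 CPM in the high and low morula sums and 21.6 ± 10.8 and 91.8 ± 43.8 CPM in the blastocyst sums. The named genes with a higher contrast were Ap2a2 (1.61, SE 0.22, adjusted p = 3.41e-05), a subunit of the clathrin adaptor AP-2, Cnn3 (1.31, SE 0.21, adjusted p = 0.000313), an actin-binding calponin, Mtf2 (0.98, SE 0.15, adjusted p = 0.000245), a Polycomb accessory protein, Sap30 (1.97, SE 0.35, adjusted p = 0.00121), a histone deacetylase complex subunit, and Slc6a8 (1.33, SE 0.24, adjusted p = 0.00121), the creatine transporter. Ap2a2 averaged 124 and 118 CPM in the high and low morula sums and 294 ± 46.3 and 90.7 ± 20.1 CPM in the blastocyst sums. Cnn3 shares 32.0% of its stretches with other genes. Slc6a8 lies on chromosome X, and the sex makeup of the groups differed between the stages. Female wells made up 27 of 57 high and 21 of 57 low blastocyst wells, against 19 of 63 high and 36 of 63 low morula wells. The count of 114 was 35 without morula replicate 1, 56 without morula replicate 2, 58 with DESeq2 and 31 without the replicate block.

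The blastocyst genes were also looked up in the morula. Of 172 genes that rose in the blastocyst and were tested in both fits, 105 (61.0%) were above 0 in the morula, with a median of 0.07 there and 0.87 in the blastocyst. Of 193 genes that fell in the blastocyst, 107 (55.4%) were below 0 in the morula, with a median of -0.03 against -0.92. Looked up the other way, 7 of 13 genes (53.8%) that rose in the morula were above 0 in the blastocyst, with a median of 0.06 there. Over all 6340 genes tested in both, 53.5% had the same direction, and the morula median was -0.01. A single gene passed in the same direction in the fit of morula sums and in the blastocyst contrast of the fit of both stages, Gcnt1, at 65.4 ± 13.7 against 34.3 ± 16.1 CPM in the blastocyst (0.94, SE 0.28, adjusted p = 0.0402, SD, n = 4 sums). Id3 and Fgf1 passed in opposite directions in these fits. In the fit of both stages no morula gene passed.

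The last comparison asked whether the morula contrast depended on the morpholino. The difference, NKX1-2 minus control, passed for 7 of 6652 genes (0.105%), 1 higher (0.015%) and 6 lower (0.0902%), with 412 at an unadjusted p under 0.05. Dct, a melanin synthesis enzyme, had a contrast of -0.65 in control and 0.58 in NKX1-2 wells, a difference of 1.23 (SE 0.28, adjusted p = 0.0449). It stood at 85.4 and 62.5 CPM in the high against 153 and 82.0 CPM in the low sums of control wells, and at 144 and 182 against 106 and 113 CPM in NKX1-2 wells. Rprl3, annotated as a ribozyme, had the largest difference (-2.25, SE 0.37, adjusted p = 0.000626) and shares 15.0% of its stretches with other genes. Its high sums stood at 105 and 70.9 CPM in control and 36.1 and 33.8 CPM in NKX1-2 wells, and its low sums at 43.8 and 66.3 CPM in control and 138 and 72.9 CPM in NKX1-2 wells. The noncoding RNA 2310040G24Rik, outside the rule for named genes, was at 0.63 in control and -0.39 in NKX1-2 wells (difference -1.02, SE 0.17, adjusted p = 0.000626).

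The other 4 genes with a lower contrast in NKX1-2 wells were Gla (-1.62, SE 0.37, adjusted p = 0.0449), a lysosomal galactosidase, Bex1 (-1.22, SE 0.27, adjusted p = 0.0449), the zinc finger gene Zfp599 (-1.50, SE 0.34, adjusted p = 0.0449) and the ribosomal protein gene Rpl3 (-1.11, SE 0.23, adjusted p = 0.0159). Gla and Bex1 lie on chromosome X. Bex1 and Rpl3 share 40.0% and 37.6% of their stretches with other genes and are uncertain. Female wells made up 5 of 16 high and 12 of 16 low control wells of replicate 1, 7 of 16 and 9 of 16 of replicate 2, and 3 of 16 against 5 of 16 and 4 of 15 against 10 of 15 NKX1-2 wells. With groups ranked within sex classes, the differences were -1.74 for Rprl3, -1.34 for Zfp599, -1.26 for Gla, -1.08 for Bex1, -0.58 for Rpl3, -0.57 for 2310040G24Rik and 0.63 for Dct, and 0 genes passed (338 at an unadjusted p under 0.05), as under DESeq2 (26) and in a fit that left out the replicate block (222).

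**Figure D5:**
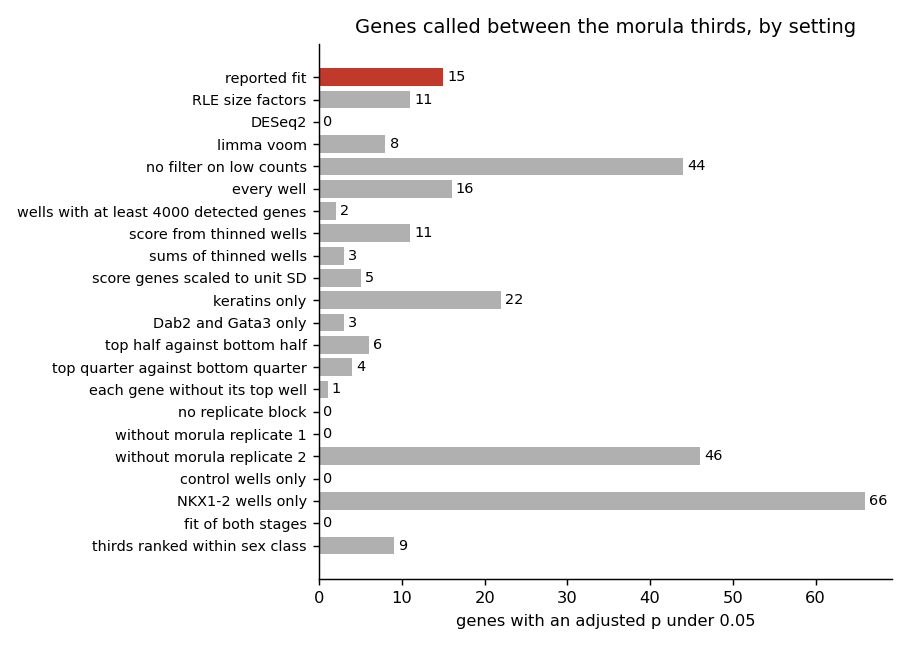
Number of genes that passed between the morula groups in the fit reported (red, 15) and under each other setting (grey, bars from 0). The number runs from 0 in 5 settings to 66 with NKX1-2 wells alone.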

How the data were processed

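The authors deposited whole-number counts per gene and well for 4 plates of 96 wells, with a table that gives each barcode's morpholino, the same for all plates. The submitters' processing notes name TopHat2, GRCm38 and mm10. No source used here states the counting tool, the strand setting, or if a count is a read or a molecule. Per the labels' protocols, polyadenylated RNA was captured and libraries followed a TruSeq protocol, while the description names 10x Genomics.

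A minimum of 2000 detected genes kept the wells used (191 of 192 morula wells, with 7191 to 119729 counts, and 177 of 192 blastocyst wells). Each well was scored, groups were formed within plate and morpholino with ties broken by barcode, and counts were summed per plate, morpholino and group. No doublet caller was run. Sums were tested with edgeR 4.0.16 (R 4.3.3, filterByExpr with a count minimum of 10, TMM scaling, robust glmQLFit, glmQLFTest) with plate and morpholino as a block, since both groups come from the same plates. The correlation of deviations within a block was 0.248 to 0.285. Benjamini-Hochberg adjustment ran over all genes tested, with a threshold of 0.05. The score genes were left out of that table and tested only when held out. Stage and morpholino differences were interaction terms. CPM use the scaled library sizes, except those of the score genes in their own groups, which are plain. Other tools were limma 3.58.1, DESeq2 1.42.0 and Python 3.11.15. The scripts were tested on simulated data.

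Named were the 12 genes in each direction with the largest change among those that passed, changed one way in all 4 blocks, reached 20 CPM in 1 group and were not Gm or Rik models. If under 12 passed, genes with the smallest p filled up. Called members of lists, 20 lineage genes (1 of them not reported here) and the 5 smallest p in each direction of both differences were added. The members and lists were chosen with earlier results of these data known. Positions are from GENCODE M21 (GRCm38), to which 54510 of 55453 gene names matched (98.3%). Shared stretches are runs of 31 bases that a gene has in common with others. A run of 344 neighbouring genes had no morula count and held 1.68% of blastocyst counts.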

Additional observations from a re-analysis of the deposited data

Results flagged for a closer look

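In the morula, 1 of 38 groups of 4 sums had a sum far from the other 3 by Dixon's ratio of gap to range at the 95% level. This was Ier2 in the high group, whose highest sum, NKX1-2 wells of replicate 2, reached 124.8 CPM against 72.1 to 79.2 CPM in the others. That level lets about 1 in 20 groups pass by chance.

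The contrast between high and low morula wells differed between the morpholinos for 7 genes by the interaction test. The difference, NKX1-2 minus control, was 1.23 for Dct, -1.02 for 2310040G24Rik, -1.11 for Rpl3, -1.22 for Bex1, -1.50 for Zfp599, -1.62 for Gla and -2.25 for Rprl3 on the log2 scale.

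The contrast differed between the stages, again by the interaction test. The difference, blastocyst minus morula, was 0.98 for Mtf2, 1.31 for Cnn3, 1.33 for Slc6a8, 1.61 for Ap2a2 and 1.97 for Sap30. It was -1.56 for Abcb5, -2.10 for Id3, -2.17 for Bex6, -2.20 for Fgf1, -2.25 for Spic and -2.37 for Hand1. For held-out score genes it was 2.15 for Krt18, 2.52 for Dab2 and 2.05 for Gata3.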

How the results depend on the processing

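The morula contrast rested on few counts per well and on 2 plates, and its calls depended on most settings. The count of 15 genes (14 higher, 1 lower) kept within 1.5 times in 4 of 21 alternatives. It was 11, 11 and 0 (in all, higher and lower) with RLE size factors, 0, 0 and 0 with DESeq2, 8, 8 and 0 with limma voom, and 44, 34 and 10 with no filter on low counts. It was 2, 2 and 0 in wells with at least 4000 genes, 11, 10 and 1 with the score from thinned wells, 3, 2 and 1 with sums of thinned wells, 5, 5 and 0 with scaled score genes, 22, 20 and 2 with keratins only, and 3, 1 and 2 with Dab2 and Gata3 only. It was 6, 5 and 1 with groups split at the median, 4, 3 and 1 with the fourth of wells at each end, and 1, 1 and 0 without each gene's top well. It was 0, 0 and 0 with no replicate block, 0, 0 and 0 with control wells only, and 66, 43 and 23 with NKX1-2 wells only. Without 1 morula plate it ran from 0 to 46, from 0 to 35 higher and from 0 to 11 lower. The fits on 1 morula plate or 1 morpholino had few residual degrees of freedom. The fit reported had few as well, with 8 sums, 4 blocks and 1 term for the group. In 2 alternatives chosen after seeing the data, it was 0, 0 and 0 in a fit of both stages and 9, 8 and 1 with groups ranked within sex class (female wells and all others). The causes were not tested. Of the 15 genes, 14 passed with every well, 8 with keratins only, 10 with NKX1-2 wells only, 1 with groups split at the median and 0 with Dab2 and Gata3 only. Fold changes moved too. With Dab2 and Gata3 only, values were 0.00327 for Gpx1, 0.0134 for Calm5, 0.32 for Gng2, 0.35 for Scarb2, 0.41 for Fgf1, 0.56 for Gcnt1, 0.61 for Cited2 and -0.12 for Gm9625. That ranking ordered wells with neither gene by barcode. With keratins only, Ier2 was at 0.37. Without morula replicate 1, Arpc1b was at 0.26 and Gm9625 at -0.24. Within sex class, Calm5 was at 0.82, Gcnt1 at 0.78, Fgf1 at 0.56, Capzb at 0.42 and Gm9625 at -0.22. Over the alternatives that gave a value, Id3 ran from 0.0426 to 0.58, Hes1 from 0.41 to 0.74 and Cited2 from 0.51 to 1.06.

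The morpholino difference, 7 genes (1 higher, 6 lower), was 8, 1 and 7 with RLE size factors, 0, 0 and 0 with DESeq2, 8, 2 and 6 with limma voom, 18, 6 and 12 with no filter, 3, 0 and 3 with every well, 2, 0 and 2 with at least 4000 genes, 22, 6 and 16 with the score from thinned wells and 5, 1 and 4 with sums of thinned wells. It was 5, 3 and 2 with scaled score genes, 3, 2 and 1 with keratins only, 6, 4 and 2 with Dab2 and Gata3 only, 5, 2 and 3 with groups split at the median, 1, 0 and 1 with the fourth of wells at each end, 1, 0 and 1 without each gene's top well, 0, 0 and 0 with no replicate block and 0, 0 and 0 within sex class. Leaving out 1 plate left no residual degrees of freedom for this difference and was not run. The reported fit of this difference had few, with the same 8 sums and 1 term more than the fit of the groups.

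The stage difference, 114 genes (46 higher, 68 lower), was 58, 24 and 34 with DESeq2, 64, 25 and 39 with sums of thinned wells and 31, 13 and 18 with no replicate block. Without 1 plate it ran from 35 to 77, from 11 to 30 higher and from 24 to 50 lower. The total stayed within 1.5 times in 14 of 20 alternatives, among them the fit without blastocyst replicate 2, with 77 genes.

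None of the held-out score genes passed in the morula under any alternative that could be run. Dab2 changed sign without each gene's top well (-0.14), and without 1 morula plate its value ran from -0.40 upward to 0.54. Krt18, Dab2 and Gata3 were not tested with the fourth of wells at each end or with sums of thinned wells, and Dab2 was not tested with the score from thinned wells.

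Single genes near 0 changed sign. Tfap2c was at 0.00208 with every well, 0.0650 with the score from thinned wells, 0.104 with sums of thinned wells, 0.00850 with keratins only, 0.12 with Dab2 and Gata3 only, 0.0934 with control wells and 0.0459 within sex class. Cdh1 was at 0.0562, 0.57, 0.0171, 0.11 and 0.14 with thinned scores, thinned sums, scaled genes, Dab2 and Gata3 only and the median split, and at 0.0583 and 0.0731 without each gene's top well and with control wells. Klf5 was at -0.0709, -0.0283 and -0.0519 with thinned scores, keratins only and the fourth of wells at each end. Yap1 was at 0.0409, 0.0740 and 0.00146 with scaled genes, Dab2 and Gata3 only and control wells. Amot was at -0.21 and -0.0899 with Dab2 and Gata3 only and control wells. Gata6 was at 0.0386, 0.00151 and 0.0186 with Dab2 and Gata3 only, the median split and within sex class. Tead4 was at 0.00479 with the median split. Pdlim1 was at -0.0193 and Dct at -0.10 with Dab2 and Gata3 only. Without 1 morula plate, values ran from -0.0874 to 0.0833 for Tfap2c, from -0.502 to 0.306 for Cdh1, from -0.308 to 0.112 for Tead4 and from -0.154 to 0.591 for Nanog.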
